A study of Mus musculus with 6 samples.

Results

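The 41 genes described here encode subunits of the NMDA, kainate, metabotropic glutamate, GABA-A, GABA-B and glycine receptors. They were taken by symbol from the 19937 genes that had a transcript cluster, a group of probes for 1 transcribed region, named for that gene alone. Symbols beginning with Grin, Grik or Grm and a digit, with Gabr or with Gabbr, and the symbols Glra1 to Glra4 and Glrb, were members. A gene with several clusters is given by the one with the highest mean. These families, and the gene lists used below, were chosen with earlier results of these data known. Their shares beside those of all genes are therefore descriptions and no test. RNA came from primary neurospheres, the floating colonies that precursor cells form in culture, grown from the minced hippocampus of adult male C57BL/6J mice aged 8 to 12 weeks in medium with EGF and bFGF. Norepinephrine at 10 µM was present in 1 group (N) and potassium chloride at 15 mM in the other (K), spheres were collected on day 14, and 3 Affymetrix arrays were run per group. The labels call the spheres small and the arrays biological replicates, and do not say which mice each came from. No untreated spheres are in this series, so each value sets N against K. A neurosphere mixes several cell types, and fewer cells of a type cannot be told apart from less RNA per cell.

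Glutamate acts on ion channels, among them the NMDA and kainate receptors, and on the metabotropic receptors, which signal through G proteins. GABA and glycine open chloride channels, the GABA-A and glycine receptors, and GABA also acts on the G protein-coupled GABA-B receptor. Adult neural precursors and astrocytes carry some of these receptors, and GABA is known to regulate the quiescence of hippocampal precursors. Potassium chloride depolarises cells, while norepinephrine acts on adrenergic receptors.

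The largest differences between N and K lay in 5 genes, and none of the 41 passed an adjusted p of 0.05. Gabbr1, Gabrb1 and Grik2 had higher values with N, by 1.88, 2.20 and 1.62 fold, and Grin3a and Gabbr2 higher values with K, by 1.52 and 1.37 fold. The K level of Gabrb1 was itself dim, so the size of its fold is uncertain. Both subunits of the GABA-B receptor stood among these genes, on opposite sides. The other 36 genes had log2 fold changes (log2FC, N minus K) from -0.42 to 0.36. N and K were compared with limma over all genes, with Benjamini-Hochberg adjusted p-values. Over all genes 31 passed an adjusted p of 0.05 in limma, 0.155%, and of the 41 members 0 did. With an unadjusted P under 0.05 there were 3 receptor genes on the N side (7.32%) and 2 on the K side (4.88%), beside 4.64% and 3.89% of all genes. An ordinary linear model without moderation also called 0 of the 41. There 1402 of all 19937 genes had an unadjusted P under 0.05, and 3 and 4 receptor genes, on the N and K sides, did. Gabrb1 and Gabbr2 were not among them (unadjusted P of 0.0510 and 0.0648 in that model), while Grin2b was. A looser rule, named the positive set in the study, asks for a P under 0.05 without adjustment and for more than 1 unit of log2FC. Here the rule was applied with the P from limma to the 19937 genes, not with the study's own P and gene selection. Gabrb1 met the rule on the N side and no member on the K side, beside 0.391% and 0.1% of all genes. The 3 N arrays all lay above the 3 K arrays for 5 receptor genes (12.2%) and all below for 6 (14.6%), beside 5.78% and 7.55% of all genes. The median log2FC over the 41 genes was 0.02, and over all genes -0.03.

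**Figure D1:**
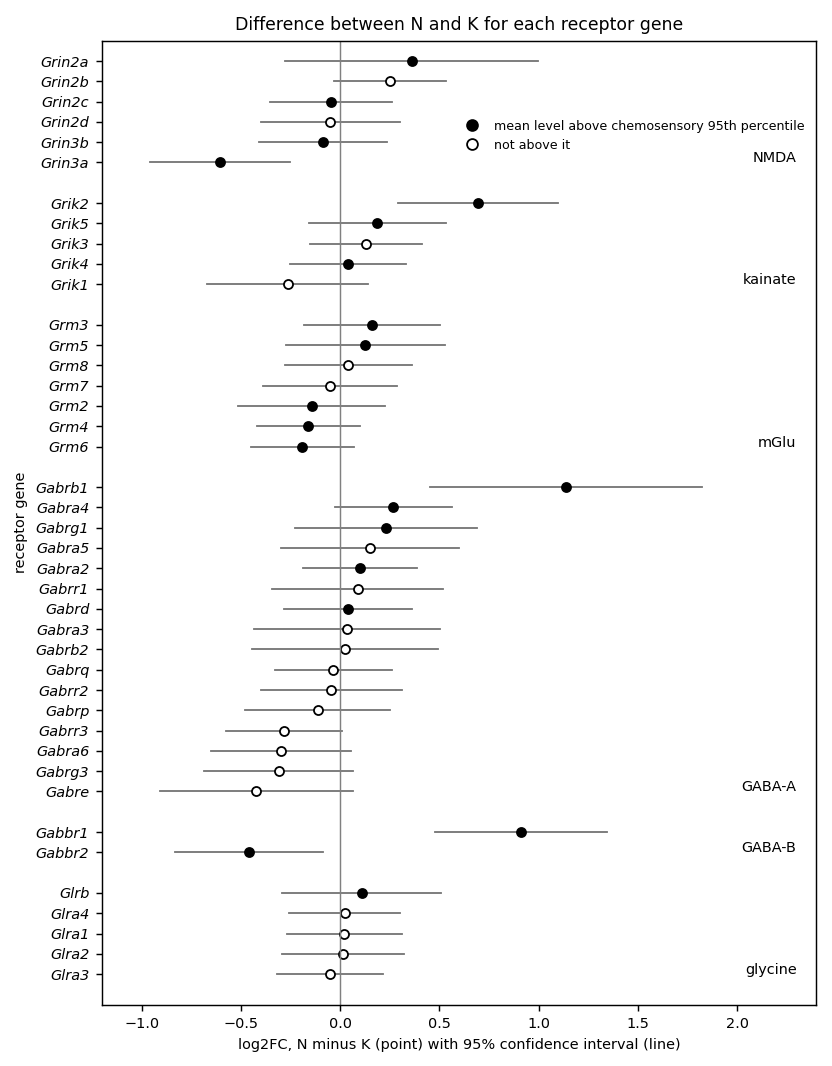
The 41 receptor genes by family, each as a point at its log2FC, N minus K, on the horizontal axis, with lines for the 95% confidence interval from limma. Filled points mark the 20 genes whose mean level lay above the 95th percentile of chemosensory receptor genes. Gabrb1, Gabbr1 and Grik2 stand to the right of 0, and Grin3a and Gabbr2 to the left.

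The values are log2 values made by the authors with RMA, and they carry no detection call. As a scale for dim clusters, 1194 olfactory and vomeronasal receptor genes, which belong to the nose, had mean levels with a median of 4.46 and a 95th percentile of 6.24. Of the 41 receptor genes, 20 lay above that percentile and 21 did not. Grik4 and Grin2c stood just above it (6.26 each), and Gabrb2 and Gabrr2 just below (6.23 and 6.24). Clusters differ in how brightly they bind, so these levels do not rank genes by abundance. Gabrb1, with a mean of 6.29, counts among the 20 through its 3 N arrays and K replicate 2, its other K arrays lying below the percentile. The chemosensory genes themselves had a median log2FC of -0.12, and 70 of them had an unadjusted P under 0.05 with higher values on K against 1 with higher values on N. Their median level was 4.60 on K replicates 1 and 3 and 4.38 to 4.41 on the other 4 arrays. The 21 dim receptor genes had medians of 5.45, 5.21 and 5.23 on the N arrays and 5.52, 5.22 and 5.37 on the K arrays, so K replicate 2 was the lowest K array for both sets. For the 20 receptor genes above the percentile the medians were 6.86, 6.78 and 6.82 on the N arrays and 6.70, 6.66 and 6.71 on the K arrays. The range from the 10th to the 90th percentile of all clusters was 4.89 and 4.85 on K replicates 1 and 3. On the other 4 arrays it was 5.07 to 5.14. The part of these differences between arrays in the receptor values was not tested.

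**Figure D2:**
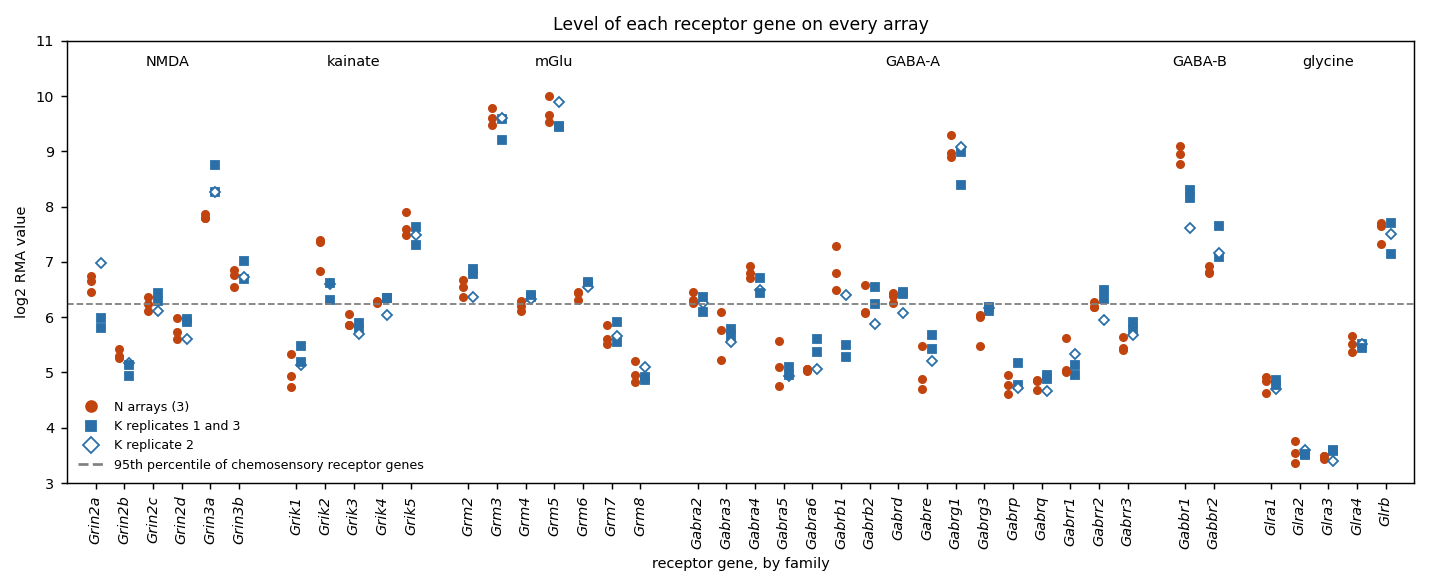
Log2 RMA values (vertical axis) of the 41 receptor genes by family on the 3 N arrays (circles), K replicates 1 and 3 (filled squares) and K replicate 2 (open diamonds), with a dashed line at 6.24, the 95th percentile of the mean levels of chemosensory receptor genes. Grm3, Grm5 and Gabrg1 are bright on all arrays, and the N and K arrays of Gabbr1 and Grin3a stand apart.

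The labelled cells were checked by their markers. The precursor genes Sox2 and Nes had mean levels of 10.15 and 8.24 with N and 9.90 and 8.76 with K, while the neuroblast gene Dcx, at 5.44 and 5.51, lay among the dim clusters. Across clusters, K replicate 2 had a mean correlation of 0.969 with the N arrays and 0.954 with its own group, and for K replicate 1 these were 0.955 and 0.954. The mean level over 8 astrocyte markers ran from 8.83 to 9.27 on the N arrays and from 8.35 to 8.44 on the K arrays, with 7 of the 8 higher with N. Gfap, the intermediate filament gene of astrocytes, had 8.14 ± 0.34 with N and 6.48 ± 0.30 with K (SD, n = 3 arrays each). It was the only astrocyte marker called (adjusted p = 0.0358 from limma). The mean over 7 precursor markers overlapped between groups (9.13 to 9.29 with N, 9.11 to 9.25 with K). Of the 7, 3 did not overlap singly, Vim and Prom1 being higher with N (28.6%) and Nes higher with K (14.3%). Over all genes 5.78% and 7.55% did not overlap in these directions. Over 8 neuron markers the mean level ran from 7.23 to 7.24 with N and from 6.84 to 7.08 with K, 3 of the 8 being higher with N and the median log2FC being -0.08. Gap43, a gene of growing axons, was called among them (log2FC 1.90, adjusted p = 0.0228 from limma). Map2, of the same list, had higher values with K and groups that did not overlap (log2FC -0.32). The part of these markers in the receptor values was not tested.

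The GABA-B receptor works as a pair of subunits: the product of Gabbr1 binds GABA, and that of Gabbr2 brings the pair to the cell surface and couples to the G protein. Gabbr1 read 8.77, 8.95 and 9.10 on N replicates 1 to 3 and 8.16, 7.62 and 8.31 on K replicates 1 to 3. Every N array lay above every K array, with K replicate 2 the lowest. Its log2FC, 0.91 (standard error 0.19 with 3 arrays in each group, 95% interval 0.48 to 1.35), had the smallest P of the 41 and did not pass over all genes (adjusted p = 0.180 from limma). Gabbr2 read 6.92, 6.81 and 6.80 on the N arrays and 7.09, 7.17 and 7.66 on the K arrays, with all N arrays below all K arrays and K replicate 3 the highest. Its log2FC was -0.46 (standard error 0.16, 95% interval -0.83 to -0.08, adjusted p = 0.491 from limma). With all arrays the unadjusted P was 0.0218. It was 0.0570 from limma without K replicate 3, where the log2FC was -0.28, and 0.0577 and 0.0580 without N replicates 2 and 3. Gabbr1 had 0.71 without K replicate 2 and 1.05 without K replicate 3. Taken within each array, Gabbr1 minus Gabbr2 was 1.37 higher on the log2 scale with N than with K. That the groups did not overlap in it follows from both genes. An exact permutation test of it gave p = 0.1, the smallest possible with 3 against 3 arrays, so it cannot add to what each gene shows.

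On GRCm38 (mm10), Gabbr1 lies on chromosome 17 from 37045966 to 37074305 and Gabbr2 on chromosome 4 from 46662318 to 46991714. The 250 bases before a RefSeq start of each gene are given, as the promoters of subunits of 1 receptor whose values went opposite ways. Those of Gabrb1 and Grik2, the other genes with an unadjusted P under 0.05 that had such a window, are given too. The window of Grik2 lies inside the span of that gene (49093680 to 49790161), before a start within it. The printed window of Gabrb1 lies inside the span of Gabra4 (71569734 to 71658308), a member on the other strand. The windows were read from the RefSeq table of GRCm38.p6, 5′ to 3′ on the strand of the gene. GC boxes (GGGCGG, searched on both strands) are in capitals.
Gabbr1, plus strand, chr17:37045716-37045965: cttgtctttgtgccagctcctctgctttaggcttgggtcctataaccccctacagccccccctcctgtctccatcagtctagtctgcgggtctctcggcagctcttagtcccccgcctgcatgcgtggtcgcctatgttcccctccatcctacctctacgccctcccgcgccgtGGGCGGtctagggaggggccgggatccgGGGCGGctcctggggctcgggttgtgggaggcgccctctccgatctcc
Gabbr2, minus strand, chr4:46991715-46991964: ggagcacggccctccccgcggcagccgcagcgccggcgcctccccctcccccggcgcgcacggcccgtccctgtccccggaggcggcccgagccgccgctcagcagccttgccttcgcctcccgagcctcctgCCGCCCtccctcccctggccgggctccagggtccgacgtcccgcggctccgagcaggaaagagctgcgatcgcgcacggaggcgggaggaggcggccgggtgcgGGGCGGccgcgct
Gabrb1, plus strand, chr5:71657671-71657920: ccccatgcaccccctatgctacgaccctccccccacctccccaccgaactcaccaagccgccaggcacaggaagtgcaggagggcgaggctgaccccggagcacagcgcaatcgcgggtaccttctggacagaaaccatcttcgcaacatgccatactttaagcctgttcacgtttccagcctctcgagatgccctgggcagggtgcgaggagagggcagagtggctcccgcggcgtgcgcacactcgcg
Grik2, minus strand, chr10:49788755-49789004: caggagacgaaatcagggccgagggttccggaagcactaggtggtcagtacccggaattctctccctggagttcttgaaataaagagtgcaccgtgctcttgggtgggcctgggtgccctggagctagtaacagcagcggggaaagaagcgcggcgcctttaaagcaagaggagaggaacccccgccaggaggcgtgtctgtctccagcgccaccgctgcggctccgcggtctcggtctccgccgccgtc

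The printed windows of Gabbr1 and Gabbr2 each held 2 GC boxes and those of Gabrb1 and Grik2 held 0. A further window of Gabrb1, chr5:71699682-71699931, is not printed and also held 0. Of the 40 member windows 21 (52.5%) held at least 1, and of all 32851 windows of this length 32.7% did. The window of Gabbr2 was 80.8% G and C and that of Gabbr1 66.0%, against a median of 52.4% over all windows. The cAMP response element, TGACGTCA, through which CREB acts, was searched on both strands, as was TGACG, which lies within it. The full element was in 0 of the 40 windows of the 33 members that had one and in 1.55% of all windows, and TGACG was in 2 of the 40, those of Gabrr1 and 1 of 3 of Grm8, and in 17.8% of all windows. These are matches of letters in a short window and say nothing of whether a factor binds.

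GABA-A receptors are pentamers, mostly of alpha and beta subunits with a gamma or delta subunit. Gabrb1, which encodes the first beta subunit, had the largest log2FC of the 41, at 1.14 (standard error 0.30, 95% interval 0.45 to 1.83, adjusted p = 0.294 from limma). It read 6.81, 6.49 and 7.29 on the N arrays and 5.49, 6.39 and 5.28 on the K arrays. The groups did not overlap, but K replicate 2 came within 0.1 of N replicate 2, and the other K arrays lay below 6.24. Without K replicate 2 the log2FC was 1.47 (adjusted p = 0.0810 from limma), and without N replicate 3 or K replicate 3 it was 0.93 and 0.92, under the threshold of the positive set. Gabra4, an alpha subunit gene, was the only other GABA-A gene whose N arrays all lay above the K arrays, with 6.92, 6.80 and 6.72 against 6.71, 6.49 and 6.43 and a log2FC of 0.27 (standard error 0.13, adjusted p = 0.632 from limma). N replicate 3 and K replicate 1 were nearly equal there.

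Gabrb1 and Gabra4 are neighbours on chromosome 5 that run in opposite directions, and their 5′ ends share 388 bases, from 71657921 to 71658308. How many probes of either cluster lie in that stretch is not given in the sources used here. Gabrg1 and Gabra2 complete this group of genes on chromosome 5, where the log2FC of Gabrg1 was 0.23 (standard error 0.20) and that of Gabra2 0.10 (standard error 0.13). Gabrg1, which encodes a gamma subunit known from glia, was bright on every array, reading 9.29, 8.89 and 8.97 with N and 8.98, 9.08 and 8.39 with K. Its groups overlapped, its 95% interval ran from -0.23 to 0.69, and its log2FC was 0.017 without K replicate 3. That of Gabra2 was 0.029 without K replicate 1. On chromosome X, Gabre, Gabra3 and Gabrq had -0.42, 0.03 and -0.03. On chromosome 7, Gabrg3 had -0.31 and Gabra5 0.15, and on chromosome 11, Gabra6 had -0.30 and Gabrb2 0.03.

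The remaining GABA-A genes were mostly dim, 11 of the 16 not exceeding the 95th percentile of the chemosensory genes. Gabrg3 and Gabrr3, a rho subunit gene, had all N arrays below all K arrays. Gabrr3 read 5.45, 5.64 and 5.41 with N and 5.76, 5.67 and 5.92 with K, a log2FC of -0.28 (standard error 0.13, adjusted p = 0.600 from limma). Gabrg3 read 5.48, 6.00 and 6.04 with N and 6.11, 6.17 and 6.18 with K, a log2FC of -0.31 (standard error 0.16, adjusted p = 0.669 from limma). N replicate 1 was the lowest, and without it the log2FC was -0.13. Over the 16 genes the median log2FC was 0.03, with 9 above 0 and 7 below. Gabrb2 had 3 clusters, with log2FC of 0.03, 0.57 and 0.28, and its values are those of the cluster with the highest mean.

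The NMDA receptor is a calcium-permeable channel that opens when glutamate and a co-agonist bind and the membrane is depolarised. Grin3a, which encodes a subunit that binds glycine and lowers the calcium permeability of the channel, read 7.86, 7.80 and 7.80 with N and 8.26, 8.26 and 8.75 with K. The N arrays lay within 0.1 of each other and below all K arrays, and K replicate 3 was the highest. The log2FC was -0.61 (standard error 0.15, 95% interval -0.96 to -0.25, adjusted p = 0.279 from limma), and -0.44 without K replicate 3. Grin2b, which encodes a glutamate-binding subunit, had dim values, 5.42, 5.30 and 5.25 with N against 4.94, 5.17 and 5.13 with K. These did not overlap (log2FC 0.25, standard error 0.12, adjusted p = 0.639 from limma).

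Grin2a read 6.45, 6.65 and 6.74 with N and 5.80, 6.98 and 5.98 with K. K replicate 2 was the highest of all 6 arrays and the other K arrays were the lowest, so the groups overlapped and the log2FC of 0.36 had a wide interval, -0.28 to 1.00. Without K replicate 2 it was 0.73, with an unadjusted P of 0.00135 and an adjusted p of 0.127 from limma. In that setting 2912 of all genes had an unadjusted P under 0.05, against 1702 with all arrays. Without K replicate 1 the log2FC of Grin2a was 0.13, and without K replicate 3 it was 0.22. Grin2c, Grin2d and Grin3b had log2FC from -0.09 to -0.05. Over the family, 1 of 6 genes (16.7%) had an unadjusted P under 0.05, with higher values on K, beside 3.89% of all genes. The family's median log2FC was -0.05. Grin1, the subunit that NMDA receptors require, was not analysed here.

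Kainate receptors are cation channels formed by 5 subunit genes, all measured. Grik2 encodes a subunit that forms channels by itself and read 7.37, 6.84 and 7.39 with N and 6.31, 6.59 and 6.62 with K. Its groups did not overlap, and N replicate 2 came closest to the K arrays. The log2FC was 0.69 (standard error 0.18, 95% interval 0.29 to 1.10, adjusted p = 0.275 from limma), and it ran from 0.60 to 0.87 with each array left out in turn. Grik5, which encodes a high-affinity subunit that needs a partner such as the product of Grik2, had 7.59, 7.49 and 7.90 with N and 7.63, 7.49 and 7.30 with K. Its groups overlapped (log2FC 0.19, 95% interval -0.16 to 0.53), and without N replicate 3 its log2FC was 0.068. Grik1, Grik3 and Grik4 had log2FC of -0.26, 0.13 and 0.04, and the family's median was 0.13.

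**Figure D3:**
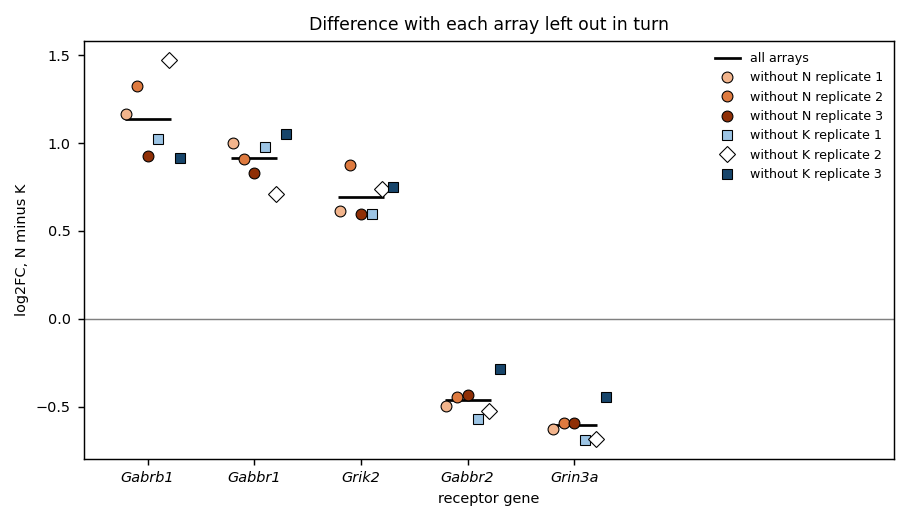
Log2FC of N minus K (vertical axis) for the 5 receptor genes with an unadjusted P under 0.05, with all arrays (bar) and with each N array (circles) or K array (squares and diamond) left out. Signs do not turn for any of the 5, and Gabrb1 spreads most, from 0.92 to 1.47.

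Metabotropic glutamate receptors showed small differences, with log2FC from -0.19 to 0.16 over the 7 measured genes. Grm5, which signals through Gq and is known from precursors and young astrocytes, read 10.00, 9.54 and 9.65 with N and 9.46, 9.89 and 9.45 with K. Grm3, a Gi-coupled receptor of astrocytes, read 9.48, 9.61 and 9.78 with N and 9.58, 9.60 and 9.21 with K. The groups overlapped for both, with log2FC of 0.13 (95% interval -0.27 to 0.53) and 0.16 (95% interval -0.18 to 0.50), both intervals lying within 1 of 0. Grm5 had -0.01 without N replicate 1, and Grm3 0.035 without K replicate 3. Grm6 and Grm4, members of the third group of these receptors, had all N arrays below all K arrays by small margins. Grm6 read 6.44, 6.31 and 6.46 with N and 6.60, 6.55 and 6.64 with K (log2FC -0.19, standard error 0.11, adjusted p = 0.712 from limma), and Grm4 6.20, 6.30 and 6.12 with N and 6.36, 6.33 and 6.41 with K (log2FC -0.16, standard error 0.11, adjusted p = 0.774 from limma). Grm2, Grm7 and Grm8 had -0.14, -0.05 and 0.04. None of the 7 genes had an unadjusted P under 0.05 in limma, 0 were called after adjustment, and the median was -0.05.

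Glycine receptors are chloride channels of alpha subunits and the beta subunit Glrb, which binds the scaffold protein gephyrin. Glrb read 7.70, 7.64 and 7.33 with N and 7.14, 7.50 and 7.71 with K, with overlapping groups and a log2FC of 0.11 (95% interval -0.29 to 0.51). Without K replicate 1 it was -0.048. The alpha subunit genes Glra1 to Glra4 were all dim, with mean levels from 3.50 to 5.50, and had log2FC from -0.05 to 0.02. Glra2 and Glra3, at 3.55 and 3.50, lay below the median of the chemosensory genes.

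Genes that work with these receptors were taken from lists of partners. Of 22 measured scaffold and auxiliary genes of glutamate receptors 0 were called in limma and 0 had an unadjusted P under 0.05, and the median log2FC was -0.02. The kainate receptor auxiliary genes Neto2 and Neto1 had -0.43 (standard error 0.24) and -0.29 (standard error 0.16), and -0.19 without N replicate 3 and -0.18 without K replicate 2. Dlg4, the gene of the scaffold PSD-95, had 0.21 (standard error 0.12) with groups that did not overlap, and Dlgap3 had -0.17, or -0.08 without K replicate 3. Of 14 scaffold and auxiliary genes of inhibitory receptors 0 were called and 1 (7.14%) had an unadjusted P under 0.05, higher with N, beside 4.64% of all genes. That was Slitrk3, an adhesion gene of inhibitory synapses, with 6.25, 6.51 and 6.16 on the N arrays and 5.94, 5.56 and 5.44 on the K arrays (log2FC 0.66, standard error 0.17, adjusted p = 0.267 from limma). Its cluster was dim, with a mean level of 5.98 and every K array below 6.24, so the size of its difference is uncertain. Clptm1, Plcl1 and Shisa7 had -0.31, -0.26 and -0.15, and the list's median was -0.01. Without N replicate 1, Clptm1 had -0.18 and Plcl1 -0.11. Gphn, the gene of gephyrin, had 0.05.

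Among 10 genes of GABA and glycine synthesis, transport and breakdown 0 were called in limma. An unadjusted P under 0.05 was found for 2 (20%), both higher with N, beside 4.64% of all genes. Abat encodes GABA transaminase and Aldh5a1 the next enzyme, succinic semialdehyde dehydrogenase, and together they break GABA down. Abat read 9.03, 8.85 and 9.30 with N and 8.70, 8.68 and 8.00 with K (log2FC 0.60, standard error 0.21, adjusted p = 0.481 from limma). Aldh5a1 read 6.95, 6.88 and 6.94 with N and 6.54, 6.57 and 6.11 with K (log2FC 0.52, standard error 0.15, adjusted p = 0.347 from limma). The groups did not overlap for either, and K replicate 3 was the lowest for both. Without it the log2FC were 0.37 for both. The glycine transporter gene Slc6a9 had 0.25 and the vesicular transporter gene Slc32a1 -0.12, while Gad1 and Gad2, whose products make GABA, had 0.10 and 0.01. The list's median was 0.05.

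**Figure D4:**
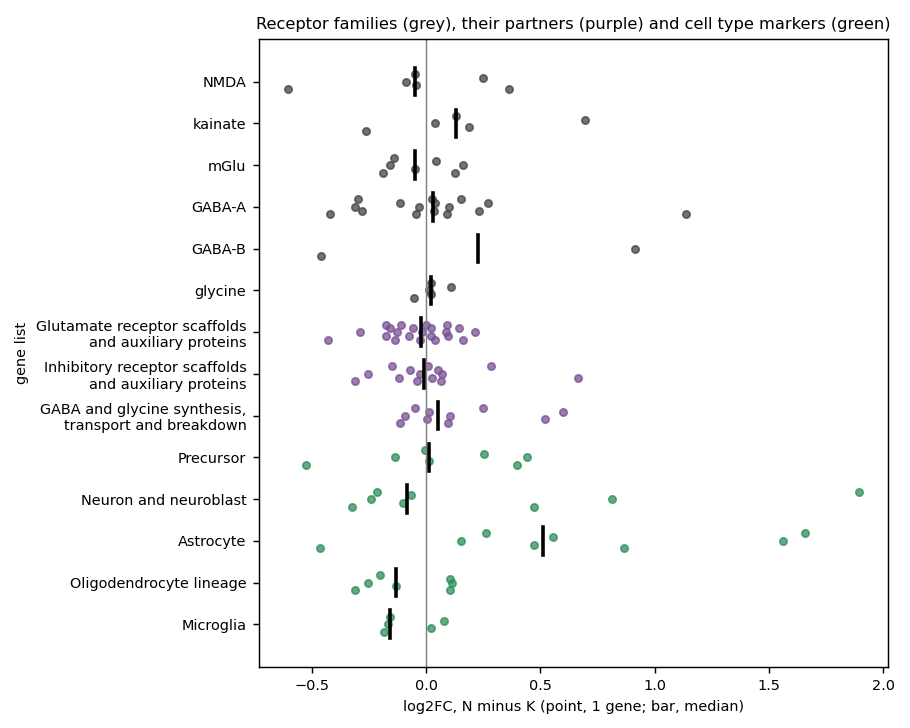
Receptor families (grey), partner lists (purple) and cell type markers (green) on a horizontal axis of log2FC, N minus K, where points are genes and bars are medians. Family medians run from -0.05 to 0.23, the last being the midpoint of the GABA-B pair with its opposite signs (0.09 without K replicate 2 and 0.38 without K replicate 3), and the median of the astrocyte markers is 0.51.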

How the data were processed

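The authors took the scanned images of Mouse Gene 1.0 ST arrays into Partek Genomics Suite, and the deposited values are log2 values from RMA, which corrects the background, normalizes between arrays and gives a value per transcript cluster. Versions and settings are not given in the sources used here. Of 34760 clusters, 21640 had exactly 1 symbol in the platform annotation, and these gave 19937 genes, each by its cluster with the highest mean. Depth does not apply to arrays, and 3 arrays per group limit the precision. Groups followed the sample labels. N minus K was fitted with limma 3.58.1 in R 4.3.3 (lmFit, eBayes, no further terms, 4 residual and 4.59 prior degrees of freedom) on all genes, with Benjamini-Hochberg adjustment, after a test on simulated data. For the array analysis the paper refers to another study. The members and lists were chosen with earlier results of these data known. Members with an unadjusted P under 0.05, with groups that did not overlap or with the largest log2FC of a family, the subunits Gabbr1, Gabbr2 and Glrb, and up to 4 partners of each list by smallest P were named in full. Gphn, Gad1, Gad2, Grm3, Grm5, Grik5, Grin2a and Gabrg1 were given in more detail after their values were seen. Some genes of these families and lists are not reported here. Microglial markers had means of 5.82 to 5.83 on N and 5.79 to 6.00 on K arrays, oligodendrocyte markers 7.66 to 7.69 and 7.70 to 7.80. Promoter windows came from RefSeq, figures from matplotlib 3.10.9. Each P-value from limma sets N minus K against the spread between these arrays within the groups, moderated with the spread of all genes.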

Additional observations from a re-analysis of the deposited data

How the results depend on the processing

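No receptor gene was called under any of the 16 alternatives, and the lowest adjusted p among members ran from 0.0810 (Gabrb1 without K replicate 2) to 0.627 (an ordinary linear model), all in limma or that model. By other counting rules the main fit gave 1 gene in the positive set, 3 and 2 genes with an unadjusted P under 0.05 higher with N and with K, and 5 and 6 genes whose groups did not overlap. The positive set held 0 members in the ordinary linear model and among clusters above the median intensity, which left 14 members, and 0 to 1 with each array left out. It lost Gabrb1 without N replicate 3, and without K replicate 3 its only member was Gabbr1. Genes with an unadjusted P under 0.05 and higher values with N numbered 5 with arrays centred on their median or after cyclic loess, adding Gabra4 and Grin2b. Those higher with K numbered 4 in the ordinary linear model (Grin3a, Gabrr3, Grm4 and Grm6, without Gabbr2) and 1 to 4 with an array left out. Over all 19937 genes, in both directions together, such a P was found for 1662 after centring and 1755 after cyclic loess. The ordinary linear model gave 1402, and fits with an array left out gave 1251 to 2912. Shares of all genes by direction were not counted in these settings, so these member counts have no background by side. Genes without overlap numbered 3 and 3 among clusters above the median intensity. Those higher with K numbered 6 to 12 with an array left out, 12 without K replicate 2. Groups separate more easily with fewer arrays, and the share of all genes without overlap was not counted in these settings. Without K replicate 2, 2912 of all genes had an unadjusted P under 0.05, against 1702 with all arrays. Among clusters above the median intensity the median log2FC was 0.44 for 2 kainate genes, 0.25 for 2 GABA-A genes and 0.39 for 4 genes of GABA and glycine turnover. With an array left out the GABA-A median ran from -0.10 to 0.10 and that of inhibitory scaffolds from -0.057 to 0.035. Glrb turned to -0.048 without K replicate 1 (range 0.24 to -0.048 with an array left out), while the 11 members with an unadjusted P under 0.05 or groups without overlap kept their sign. Over all 41 members, 20 had both signs among these settings, all with a main log2FC of at most 0.15 in size. The replicate numbers were not taken to pair the arrays: deviations of same-numbered arrays correlated at 0.04, 0.04 and 0.12, and N replicate 1 correlated best with K replicate 2. With the replicate block 0 members passed and 41 of all genes did, against 31. No scaling moved the median of all genes by over 0.1, the largest shift being 0.03. The median of the chemosensory genes was -0.05 after quantile normalization and -0.04 after cyclic loess.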

Other observations

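Gabbr2 and Grin3a, the receptor genes with an unadjusted P under 0.05 that were higher with K, both lie on chromosome 4 of GRCm38, with 2.67 megabases between them (Grin3a from 49661611 to 49846023). This was noticed after their values were seen, and no test of it was made. The other members on that chromosome, Gabrr1, Gabrr2, Gabrd and Grik3, had log2FC of 0.09, -0.04, 0.04 and 0.13.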
